A study of Mus musculus with 2 samples.

Results

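The regions described here are intergenic m6A peaks that lie close to genes. N6-methyladenosine (m6A) is a mark on RNA, so a peak between annotated genes marks RNA reads that were placed outside every gene span. Members were chosen by position alone: an autosomal peak whose summit lay outside every RefSeq gene span, of any biotype, and at most 5000 bases from the nearest span end. They numbered 1313, or 3.42% of the 38366 peaks in the list and 42.2% of the 3114 autosomal peaks outside gene spans (exact Clopper-Pearson 95% interval 40.4 to 43.9). Every summit lies outside gene spans by this rule, although the intervals of 147 members (11.2%) still reached into a span.

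The peaks come from methylated RNA immunoprecipitation sequencing, in which RNA pieces pulled down by an anti-m6A antibody are compared with RNA that saw no antibody. The m6A group held 1 library, of whole uterus of wild-type C57BL/6 mice in which tissue of gestation days 4 and 8 was pooled equally. The input group held 1 library made from uterus of the same strain with no antibody step, and neither a day nor a pool is named for it. With 1 library a group there are no replicates, so each value describes this pair of libraries, no test between groups was possible, and the days cannot be told apart in a pool. Names in the peak list mention day 8 alone. Markers of the tissue were present: all 16 listed smooth muscle genes, all 12 stromal genes, all 16 endothelial genes, 13 of 18 epithelial genes and 13 of 17 immune genes held a peak inside their span, beside 57.2% of all autosomal protein-coding genes. Trophoblast and embryo markers held one less often, at 7 of 20 genes, a share below that of all protein-coding genes.

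As background, m6A is placed on nascent RNA by the METTL3 and METTL14 methyltransferase, mostly in a short sequence context around GGACU, and in mRNA it is known for its enrichment near stop codons and in 3′ untranslated regions. RNA outside annotated genes has several known sources, among them unannotated 3′ extensions of mRNA, RNA transcribed in the opposite direction from active promoters, precursors of microRNAs, and transcripts of repeats. The peak list has no strand, so a peak before a gene's start may belong to either strand, and its transcript is not identified by its place.

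The stretches of DNA just before the starts of 6 protein-coding neighbours are shown because each holds the summit of a member, so the letters around an enriched place can be read. They are the 4 with the highest fold that have such a window, and the 2 that are on a gene list, all at a −log10 q of at least 5. Each is the 250 bases before the start, read 5′ to 3′ on the gene's strand, from RefSeq sequence of GRCm38.p6, the assembly of mm10. Capitals mark GGACT, the core of the usual m6A context, or AGTCC, its reverse complement. Irx3 encodes a homeobox transcription factor (minus strand, chr8:91801655-91801904, summit at base 15 of the run). Rnpc3 encodes a protein of the minor spliceosome (minus strand, chr3:113630150-113630399, summit at base 157). Pgm5 encodes a phosphoglucomutase-like protein of cell adhesions (minus strand, chr19:24861843-24862092, summit at base 37). Glg1 encodes a Golgi glycoprotein (minus strand, chr8:111259211-111259460, summit at base 37). Smad1 encodes a signal transducer of BMP receptors that decidualization uses (minus strand, chr8:79399429-79399678, summit at base 230). Bptf encodes a subunit of a chromatin remodelling complex (minus strand, chr11:107132148-107132397, summit at base 221).
Irx3: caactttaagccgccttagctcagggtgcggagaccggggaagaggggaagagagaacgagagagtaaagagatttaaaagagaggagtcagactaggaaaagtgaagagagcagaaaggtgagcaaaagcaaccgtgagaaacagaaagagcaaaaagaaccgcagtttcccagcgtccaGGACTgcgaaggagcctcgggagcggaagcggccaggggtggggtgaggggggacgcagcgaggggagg
Rnpc3: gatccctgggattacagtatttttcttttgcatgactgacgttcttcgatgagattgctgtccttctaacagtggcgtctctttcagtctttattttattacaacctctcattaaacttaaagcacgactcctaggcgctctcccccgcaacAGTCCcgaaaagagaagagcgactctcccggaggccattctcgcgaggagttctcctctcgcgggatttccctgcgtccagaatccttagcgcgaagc
Pgm5: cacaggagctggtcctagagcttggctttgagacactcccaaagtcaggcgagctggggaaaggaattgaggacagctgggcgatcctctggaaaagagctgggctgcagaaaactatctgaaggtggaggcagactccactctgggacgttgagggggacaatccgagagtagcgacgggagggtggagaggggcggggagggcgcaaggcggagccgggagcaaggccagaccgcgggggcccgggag
Glg1: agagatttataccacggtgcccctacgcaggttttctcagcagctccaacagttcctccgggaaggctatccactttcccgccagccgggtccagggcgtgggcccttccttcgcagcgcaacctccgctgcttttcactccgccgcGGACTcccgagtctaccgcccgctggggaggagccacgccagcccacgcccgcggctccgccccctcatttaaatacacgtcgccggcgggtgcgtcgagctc
Smad1: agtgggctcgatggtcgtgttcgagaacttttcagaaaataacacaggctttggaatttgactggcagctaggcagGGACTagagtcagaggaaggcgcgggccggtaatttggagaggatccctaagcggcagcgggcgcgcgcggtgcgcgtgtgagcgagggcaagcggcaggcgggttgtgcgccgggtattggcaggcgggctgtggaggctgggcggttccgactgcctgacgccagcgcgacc
Bptf: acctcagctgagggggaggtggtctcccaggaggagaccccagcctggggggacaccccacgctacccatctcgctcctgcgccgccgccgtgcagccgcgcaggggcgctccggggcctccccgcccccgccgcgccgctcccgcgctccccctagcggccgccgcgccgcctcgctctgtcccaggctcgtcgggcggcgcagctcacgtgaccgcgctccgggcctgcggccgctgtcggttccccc
The Irx3, Glg1 and Smad1 runs each hold GGACT on the gene's strand, the Rnpc3 run holds AGTCC, and the Pgm5 and Bptf runs hold neither. The marked letters of Glg1 and Rnpc3 lie inside the peak interval. Those of Irx3 (bases 182 to 186 of the run) and Smad1 (bases 77 to 81) lie outside it, on the side nearer the gene for Irx3 and farther from it for Smad1. The member by Pgm5 reached 16.7-fold (11.1 to 24.2), and the values of the other 5 are given with their genes further on. A match describes the letters and does not locate a methylated base.

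Such windows were available for 66 of the 81 members that lay within 250 bases before a start. GGACT was found on either strand in 30 of these 66 windows, or 45.5% (exact Clopper-Pearson interval 33.1 to 58.2). The same 5 letters were found in 37.9% of all 18846 windows that precede the outermost start of an autosomal gene, which lies inside that interval. The polyadenylation signal AATAAA, searched on both strands, was found in 9 of the 66 windows (13.6%, interval 6.43 to 24.3) and in 20.7% of all windows. The windows with a member were richer in G and C, with a median of 60.0% and quartiles of 53.0% and 68.3%, against 50.4% (43.6% to 58.8%) over all windows. Of the 66 windows 63 belong to protein-coding genes, and among these the medians were closer, 59.6% with a member against 53.6% over all 9841 protein-coding windows. GGACT was found in 44.4% of the 63 (interval 31.9 to 57.5) and in 38.9% of all protein-coding windows.

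Enrichment of the members was close to that of other peaks, while their depth was lower. Fold enrichment is the authors' own peak value: immunoprecipitated (IP) fragments over local background, each with 1 added. Among members its median was 6.16, its quartiles were 4.91 and 8.08, and it ran from 1.56 to 48.2. Intergenic peaks over 5 kb from genes had a median of 6.18, and peaks inside gene spans 6.12. At least 10-fold enrichment was reached by 164 members (12.5%, exact Clopper-Pearson interval 10.7 to 14.4), against 14.8% of all autosomal peaks. The median member rested on 14 IP fragments (quartiles 9 and 24), against 11 for intergenic peaks farther away and 31 inside gene spans. Local background followed the same order, with medians of 1.24, 0.618 and 3.71 scaled fragments. At 248 members (18.9%) it stood at the genome-wide level of 0.462, so no higher local value from the input was used there. This held for 39.2% of the peaks over 5 kb away and 5.04% of those inside genes. An interval beside a single fold is an exact 95% Poisson interval of its IP fragments at a fixed background, and covers counting error only.

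**Figure D1:**
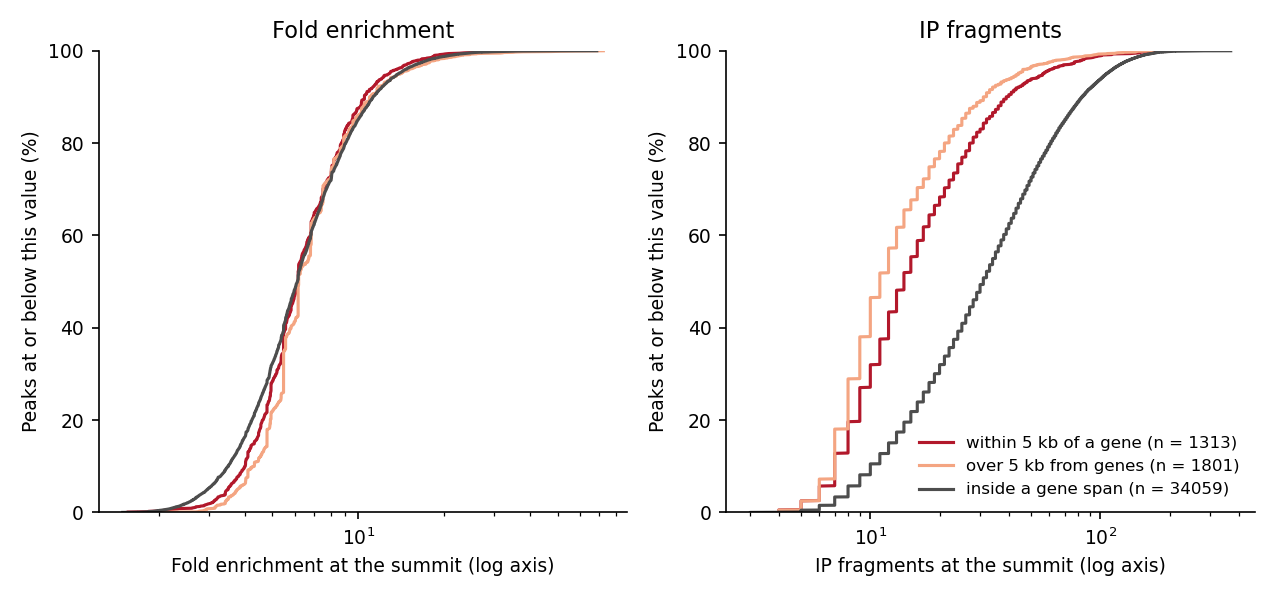
Cumulative share of peaks (vertical axes, percent) by fold enrichment (left, log axis) and by IP fragments at the summit (right, log axis) for members and for the other 2 classes of autosomal peak. The median folds are 6.16, 6.18 and 6.12, while members sit between the other classes in IP fragments.

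Members lay densest beside the starts of genes. The distance to the nearest span end had a median of 1518 bases, and 529 members (40.3%, exact Clopper-Pearson interval 37.6 to 43.0) lay within 1000 bases. Because intergenic sequence itself thins out with distance from genes, counts were divided by the autosomal intergenic sequence available at each distance. The density was 10.7 peaks per Mb in the first 500 bases, 6.99 per Mb from 501 to 1000, and 3.61 per Mb from 4501 to 5000. Beyond 5 kb it was 1.85 per Mb, over 974 Mb.

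The strand of the nearest gene was known for 912 members, of which 481 (52.7%, exact Clopper-Pearson interval 49.4 to 56.0) lay past its 3′ end and 431 before its start. The sides differed with distance. In the first 500 bases 149 members lay before a start and 76 past a 3′ end, or 17.4 and 7.91 per Mb. From 1001 to 5000 bases the share past the 3′ end was 59.5% (interval 55.2 to 63.6), against 33.8% (27.6 to 40.4) in the first 500 bases. Beside protein-coding genes 346 members lay past the 3′ end and 361 before the start, and beside long non-coding RNA genes 125 and 65. Where only protein-coding spans were counted as genes, the share past the 3′ end was 41.4%, below that before the start. Members past a 3′ end had a median fold of 5.77 on 15 IP fragments, and those before a start 6.31 on 13.

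**Figure D2:**
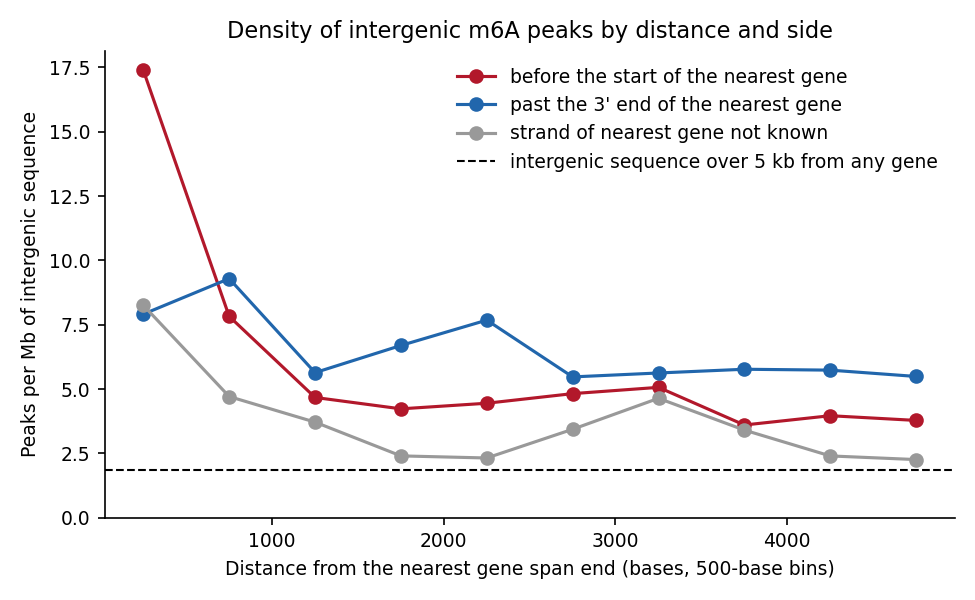
Peaks per Mb of autosomal intergenic sequence (vertical axis) in 500-base bins of distance from the nearest span end (horizontal axis, bases), by side of the nearest gene; the dashed line is intergenic sequence over 5 kb from any gene. The density before starts falls from 17.4 per Mb in the first bin to 7.83 in the second, while past 3′ ends it is 7.91 and 9.29.

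Genes on both sides within 5 kb were found for 245 members (18.7%). With both strands known, 26 lay between a pair of starts that point away from each other, 44 between a pair of 3′ ends, and 65 between an end and a start. Median folds in these arrangements were 7.65, 5.21 and 5.52, each on about the same depth (medians of 17, 16 and 17 IP fragments). An example between starts is the member 6 bases before Tlcd3a and 27 bases from Vps53, at chr11:76179476-76179702, with 8.19-fold enrichment (4.96 to 12.8). Only its summit is meant, as its interval reached into both genes.

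The nearest gene was protein-coding for 876 members (66.7%), a long non-coding RNA for 228 (17.4%), and a pseudogene for 142 (10.8%). In all 1070 genes were named as nearest neighbour. Of the 719 protein-coding neighbours, 570 (79.3%, exact Clopper-Pearson interval 76.1 to 82.2) also held a peak inside their span, where 57.2% of all autosomal protein-coding genes did. Of 188 long non-coding neighbours 69 (36.7%) held a peak, where 12.4% of all did, and of 112 pseudogene neighbours 34 (30.4%), where 9.09% of all did. Gene length was not matched in these shares, and without expression values a transcript's amount and its methylation cannot be told apart.

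The same held at single ends of protein-coding genes. Of 3′ ends with a peak in the last 1000 bases inside the gene, 2.84% (93 of 3273) had a member outside, against 1.63% (174 of 10702) of the other 3′ ends. Of starts with a peak in the first 1000 bases inside, 3.97% (84 of 2118) had a member outside, against 2.04% (237 of 11612) of the other starts. Even so, 174 of the 267 protein-coding 3′ ends with a member had no peak in the last 1000 bases inside, and 68 belonged to genes with no peak at all.

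The most enriched members lay beside pseudogenes of little known function. The highest, at chr14:78828627-78828963, lay 546 bases from Gm19098 and reached 48.2-fold (38.2 to 60.1) on 77 IP fragments. The next, at chr6:47974217-47974598, lay 2583 bases from Gm6443 and reached 45.8-fold (35.6 to 58.1) on 66 fragments at the genome-wide background. Another pseudogene, Gm8797, had a member 55 bases away at 25.6-fold (20.04 to 32.4). Among the 20 most enriched members, the interval of Gm19098 overlapped only that of Gm6443, and the latter also overlapped that of Irx3, with an upper bound of 36.4.

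Genes of developmental regulators were among the next. The member 236 bases before Irx3 (chr8:91801752-91802037) reached 26.7-fold (19.1 to 36.4) on 38 fragments, and the highest peak inside Irx3 was 19.6-fold (15.25 to 24.8). Its window is among the sequences shown above, with the summit near the end farthest from the gene. Bmp6, a secreted ligand of the BMP family, had a member 454 bases before its start at 23.5-fold (16.7 to 32.1). Fzd8, a Wnt receptor, had a member 529 bases from its span at 19.8-fold (14.1 to 27.3), and Maf, a basic leucine zipper transcription factor, 343 bases away at 18.2-fold (15.4 to 21.5). The Maf member was the deepest of the 20 most enriched, with 141 IP fragments over a width of 2514 bases. Its interval, from base 115705372 to 115707885, reached well into the gene, whose span ends at 115706894. The interval of the Fzd8 member also reached into its gene.

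The other protein-coding neighbours among the 20 most enriched members had mixed roles. Tbc1d22a, whose protein has a Rab GTPase-activating domain, had a member 234 bases before its start at 26.0-fold (21.2 to 31.5) on 102 fragments. Rnpc3 had a member 94 bases before its start at 19.3-fold (13.8 to 26.2) and no peak with its summit inside the gene, although the member's interval reached into it. Past 3′ ends stood Pcnx4 at 18.5-fold, 636 bases out, Ifnl2, an interferon lambda gene, at 18.5-fold, 4249 bases out, and Gm14288 with a pair of members at 22.7-fold and 18.3-fold. Arhgap8 had a member with its summit 761 bases away at 18.5-fold, whose interval reached into the gene. Gm10354 had a member at 18.2-fold, 3952 bases before its start. The long non-coding neighbours were 1700122H20Rik at 25.9-fold, B230312C02Rik at 20.7-fold, Gm19378 at 20.2-fold, LOC115490435 at 19.2-fold and LOC115490388 at 18.2-fold. All of these intervals overlapped from Irx3 downward, so their order is not resolved by counting error.

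**Figure D3:**
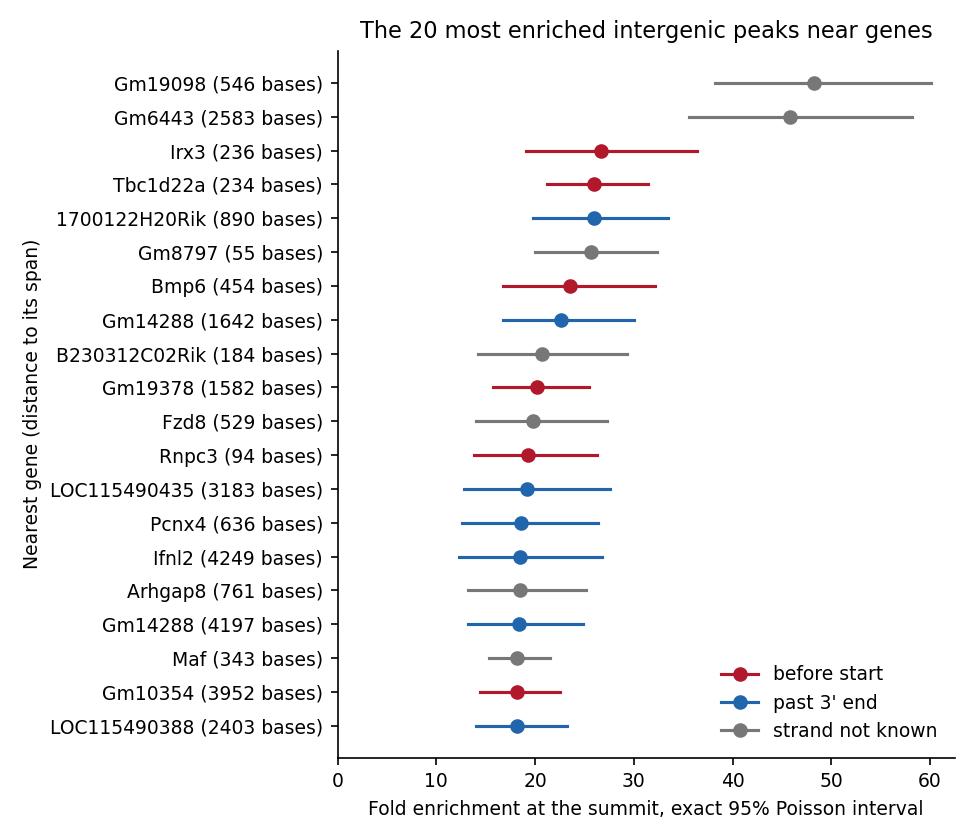
Fold enrichment (horizontal axis) with exact 95% Poisson intervals (lines) of the 20 most enriched members with a −log10 q of at least 5, named by nearest gene with the distance in bases. The members by Gm19098 and Gm6443 stand at 48.2-fold and 45.8-fold, and the other 18 lie between 18.2-fold and 26.7-fold.

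Most members were less enriched than the best peak of their own neighbour. Among 686 members beside a protein-coding gene that held a peak, 185 (27.0%, exact Clopper-Pearson interval 23.7 to 30.5) exceeded the highest fold inside that gene. Higher with intervals apart were 29 members (4.23%), against 5.25% when each peak inside a protein-coding gene was set against the highest other peak of its gene. Lower with intervals apart were 141 (20.6%). No share over peaks inside genes is given beside this count or beside the 185, so neither marks a trait of the members. The highest of several peaks tends to be high, and the number of peaks per gene was not matched. Of the 185 higher members, 130 (70.3%) had no more IP fragments than the peak inside, which means a lower background at these members.

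Among the 29 that stood apart, the ratio of outside to inside was highest by Tbc1d22a, with 26.0-fold outside against 4.46-fold (2.81 to 6.78) inside. Maf was next with 18.2-fold against 3.75-fold (2.90 to 4.78), and by Bmp6 the values were 23.5-fold against 7.53-fold (3.97 to 13.3). The intervals of the Tbc1d22a and Maf members reached into these genes, so outside refers there to the summit. The same holds for the Glg1 and Bptf members named below. In Glg1 the member before the start, whose sequence is shown above, reached 16.1-fold (11.0 to 22.9) against 6.34-fold (4.68 to 8.41) inside. The following were chosen after their values were seen. Med13, a subunit of the Mediator complex, had 15.6-fold before its start against 8.01-fold inside, and Arf3, a small GTPase, 13.8-fold against 6.21-fold. Eef2, the elongation factor of translation, had 10.5-fold (6.27 to 16.7) against 3.17-fold (2.75 to 3.64) inside. That member lay 4139 bases before the start of Eef2 and 4772 bases from Pias4. It rested on 16 IP fragments, against 202 for the peak inside. At the other end, Bptf, a chromatin remodeller, had 5.74-fold (2.94 to 10.4) 30 bases before its start against 35.7-fold (29.7 to 42.6) inside.

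**Figure D4:**
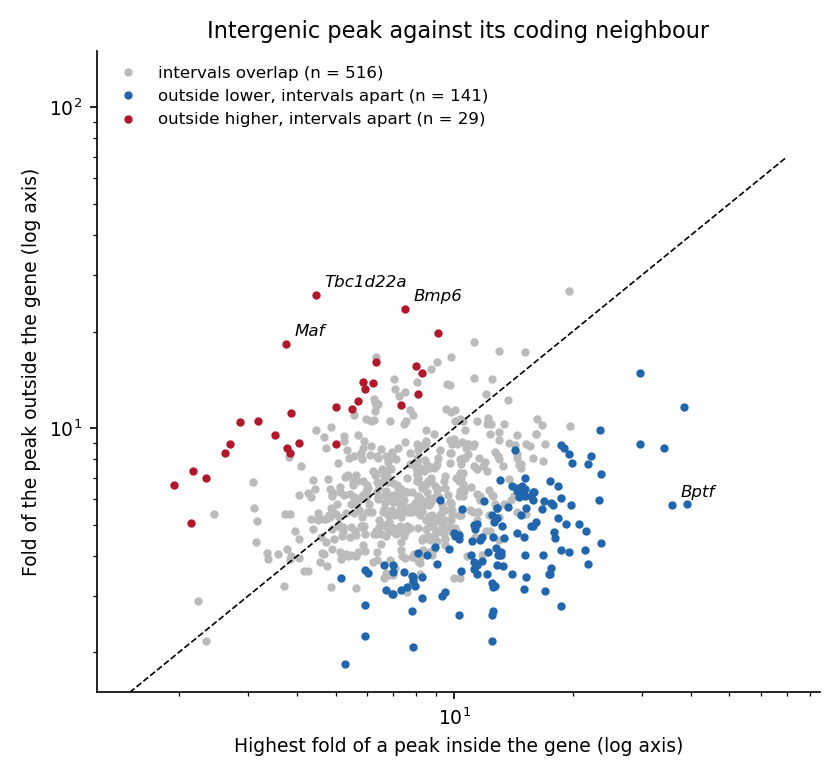
Fold of each member (vertical axis, log) against the highest fold inside its protein-coding nearest gene (horizontal axis, log), for 686 members; the dashed line marks equal folds. Red points (29) lie above with intervals apart, blue points (141) below, and grey points (516) have overlapping intervals.

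Several members beside the same gene end were uncommon. Of 1094 gene ends with a member, 924 had 1, 131 had 2, 31 had 3, 6 had 4 and 2 had 5. Past the 3′ end of Zfp968, a zinc finger gene, 5 members stood between 184 and 2998 bases out at 4.46-fold to 8.69-fold, with no peak inside the gene. Past that of 4930563M21Rik, 5 members stood between 677 and 4013 bases out at 5.19-fold to 5.94-fold, again with none inside. Past the 3′ end of Hhipl1, which encodes a protein related to the Hedgehog-interacting protein, 4 members ran from 14.2-fold (12.1 to 16.7) at 217 bases to 2.17-fold, 3.28-fold and 2.62-fold farther out. The nearest member overlapped in its fold interval with the highest peak inside Hhipl1, 12.5-fold (10.4 to 14.8), and stood apart from the other 3. That nearest member ran from base 108327567 to 108328913 and so reached well into the gene, whose span ends at base 108328300. The other 3 lay wholly outside. The long non-coding RNA gene Gm35279 had 4 members before its start at 3.805-fold to 4.46-fold, whose intervals all overlapped.

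The microRNA gene Mir5103 also had 4 members, past its 3′ end. Their folds were 6.12 (4.01 to 8.98) at 336 bases, 7.01 (4.36 to 10.8) at 1508, 11.9 (7.97 to 17.1) at 3845 and 14.2 (10.1 to 19.5) at 4822, and only the intervals of the nearest and the farthest were apart. As background, microRNAs are cut from longer primary transcripts, which annotation often represents only by the hairpin. In all 16 members had a microRNA gene as nearest neighbour, with a median of 7.12-fold on 24 IP fragments. The mature sequences of the 3 neighbours with more than 1 member, and of Mir3061, are shown to identify them, from RefSeq on GRCm38.p6, with the seed (bases 2 to 8) in capitals. For Mir99a, Mir345 and Mir3061 only the 5p arm is shown, and the 3p arm is left out.
mmu-miR-5103: uCAUCCGGgauccccugagg
mmu-miR-99a-5p: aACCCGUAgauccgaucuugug
mmu-miR-345-5p: gCUGACCCcuaguccagugcuu
mmu-miR-3061-5p: cAGUGGGCcgugaaagguagcc
No seed is shared among these 4. The member by Mir3061 lay 597 bases past the hairpin at 13.4-fold (10.2 to 17.4) on 56 fragments. Mir99a had 3 members before its start, at 8.76-fold, 7.23-fold and 4.78-fold, the last 583 bases away. Mir345 had members on both sides, 8.64-fold (6.84 to 10.8) at 521 bases before it and 4.43-fold (3.18 to 6.02) at 299 bases past it. The peaks lie beside the hairpins, so they do not show methylation of the mature microRNAs.

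Prolactin family genes were frequent neighbours. The neighbours among these rodent genes lie on chromosome 13, and hormones of the family are made by the decidua and by trophoblast, the outer cells of the embryo. Of 25 autosomal Prl genes 7 (28.0%) were nearest to a member, where 3.50% of all autosomal protein-coding genes were, and only 3 of the 25 held a peak inside. The family was looked at after the values were seen. Their 13 members had a median of 4.95-fold and ran from 2.95-fold to 11.6-fold on 5 to 53 IP fragments. Of the 7 neighbours 5 had no peak inside the span. The neighbours did not lie in a single cluster. Spans of Prl2c3 and Prl2c2 began at bases 12790816 and 12996120, and members by the remaining neighbours lay between bases 27000001 and 28000000.

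The decidualization list holds 2 of these neighbours, Prl8a2 and Prl3c1. Prl8a2, decidual prolactin-related protein, had a member 4727 bases away at 4.42-fold (2.99 to 6.32), close to the highest peak inside it, 4.72-fold (4.04 to 5.49). Prl3c1 had a member 2269 bases past its 3′ end at 2.95-fold (2.23 to 3.84), below its inside peak of 8.29-fold (6.39 to 10.6). Trophoblast genes followed. Prl3d2, a placental lactogen I gene, had 3 members before its start, at 7.42-fold, 4.95-fold and 3.71-fold, and another 3854 bases past its 3′ end at 9.46-fold (5.73 to 14.8). Prl2c3, of the proliferins, had 3 members past its 3′ end, at 6.43-fold, 4.595-fold and 4.49-fold, and Prl2c2 had a member at 5.50-fold (3.79 to 7.74).

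Prl3a1 had the highest fold of the family, 11.6-fold (8.38 to 15.6), 4806 bases before its start and 5000 bases from Prl3b1. Prl6a1 had 2 members before its start, at 8.997-fold (6.43 to 12.3) and 4.04-fold (2.62 to 5.98), whose intervals did not overlap. Copies within the Prl2c and Prl3d groups are near-identical, so reads may be assigned to the wrong copy, and these places are uncertain. Of the 13 members 12 lay over 2000 bases from the gene, whereas 759 of all 1313 members lay within 2000 bases.

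**Figure D5:**
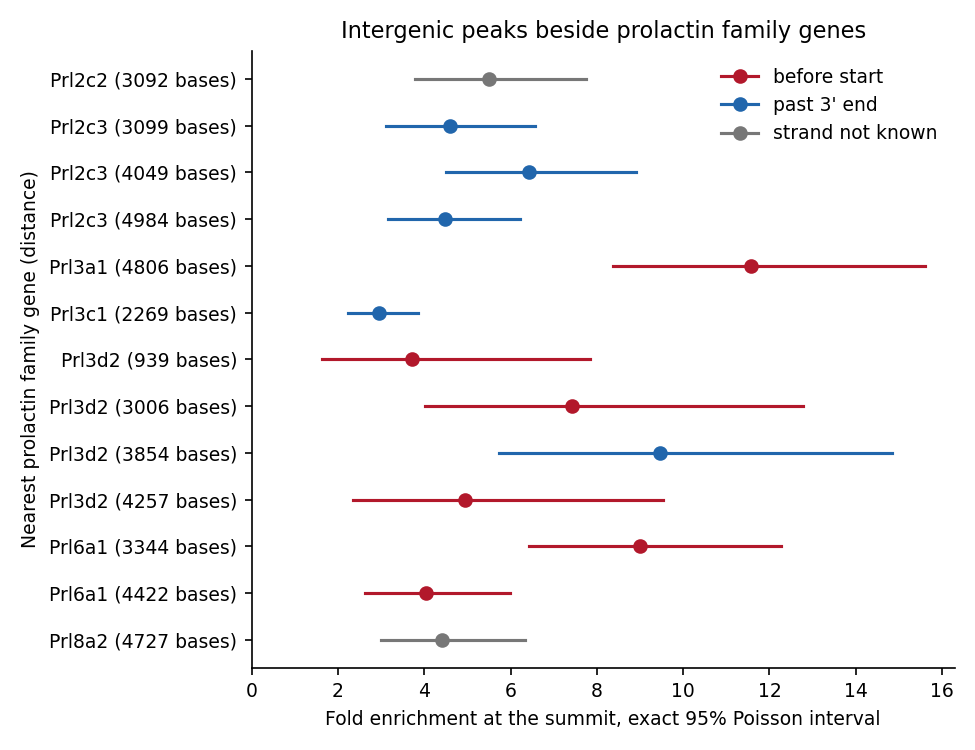
Fold enrichment (horizontal axis) with exact 95% Poisson intervals (lines) of the 13 members whose nearest gene is a prolactin family gene, with the distance in bases. Prl3a1 stands highest at 11.6-fold and Prl3c1 lowest at 2.95-fold.

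Zinc finger genes were neighbours past their 3′ ends. Of 388 autosomal Zfp genes, which encode zinc finger proteins, 25 (6.44%) were nearest to a member, against the same 3.50%. They had 45 members, of which 30 lay past the 3′ end, 6 before the start and 9 beside a gene of unknown strand. A single cluster toward the end of chromosome 2, chosen after the values were seen, held 38 members between bases 175287185 and 178065916, or 21.7% of the peaks of its window, where members were 3.53% of all autosomal peaks. Of these 38, 31 lay past a 3′ end, 0 before a start and 7 beside a gene of unknown strand. Their median was 7.42-fold, and 10 of their 18 nearest genes had no peak inside. Outside chromosome 2 the share was lower: 19 of 361 Zfp genes (5.26%) were nearest to a member, and all 19 held a peak inside. They had 27 members, with 12 past the 3′ end, 6 before the start and 9 beside a gene of unknown strand.

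In that cluster the highest were the pair past Gm14288, 22.7-fold (16.7 to 30.1) and 18.3-fold (13.2 to 24.8), and Gm14305 at 16.7-fold (12.7 to 21.6), 1884 bases out. Zfp966 followed with 14.3-fold (9.87 to 20.1) at 217 bases and 3 lower members at 10.7-fold, 4.16-fold and 4.02-fold. Zfp971 had a member of 12.1-fold (9.69 to 14.99) over 2794 bases, and Zfp973 had 3 members at 8.08-fold to 9.75-fold. Genes of this cluster are close copies of each other, so the assignment of reads among them is uncertain.

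Genes of the hormone response and of decidualization were neighbours at times. Of 36 autosomal genes of decidualization and implantation 7 (19.4%) were nearest to a member, of 28 in progesterone signalling 3, and of 28 in estrogen signalling 1, beside the 3.50% of all protein-coding genes. The lists were drawn up with earlier results of these data known, and 2 of the 7 are the prolactins above. Zbtb16, a progesterone-induced transcription factor of decidual stroma, had a member 16 bases from its span at 15.3-fold (11.5 to 19.9), against 8.75-fold (6.17 to 12.1) inside. These fold intervals overlapped, and the member itself reached into the gene. Smad1 had a member 21 bases before its start at 8.998-fold (5.66 to 13.7), in the window shown above, below its inside peak of 13.8-fold (11.6 to 16.3) with overlapping intervals. The Smad1 member reached into its gene too. Ptges, a prostaglandin E synthase, had 5.78-fold (2.86 to 10.8) on 8 fragments, and Bmpr2, a BMP receptor, 4.42-fold, 334 bases before its start.

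Wnt4, a Wnt ligand needed for decidualization and counted in the estrogen list too, had members at 313 and 1649 bases past its 3′ end, at 2.62-fold (1.66 to 3.94) and 4.50-fold (3.02 to 6.47). Both were below its inside peak of 10.3-fold (8.53 to 12.4). Il6st, the shared receptor of LIF and IL-11, had 3.40-fold (2.59 to 4.39) at 2290 bases past its 3′ end. Gli3, a Hedgehog effector, had 3.49-fold at 2482 bases, and Hsd11b2, which inactivates glucocorticoid, had 4.92-fold (2.59 to 8.68) at 3661 bases with no peak inside.

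Markers of cell types were neighbours about as often as protein-coding genes in general: 3 of 99 entries on the 6 marker lists (3.03%), beside 3.50%. There was 1 of 16 smooth muscle markers, Cald1, which encodes caldesmon, at 4.03-fold (1.99 to 7.50) on 8 fragments, 27 bases before the start. There was 1 of 16 endothelial markers, Sox18, at 6.97-fold (3.86 to 11.8), and 1 of 20 trophoblast and embryo markers, Prl2c2. None of 12 stromal, 18 epithelial and 17 immune markers was the nearest gene of a member.

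The remaining lists are read beside the same 3.50%, at which lists of this size hold few neighbours or none. Of the m6A machinery 2 of 22 genes were neighbours: the demethylase gene Alkbh5 at 6.75-fold (4.03 to 10.7), 1204 bases before its start, and the reader gene Ythdf2 at 4.74-fold (2.56 to 8.17), 3253 bases past its 3′ end. None of 23 genes of 3′ end processing and none of 13 microRNA host genes was a neighbour. Of 52 chromatin regulators 4 were (7.69%), among them the chromodomain helicase genes Chd9 at 10.5-fold and Chd2 at 4.56-fold, and Bptf at 5.74-fold. Fosl2, an AP-1 factor, was the only 1 of 31 immediate early genes, at 8.09-fold (6.54 to 9.89) on 93 fragments, 393 bases before its start. Col5a1, a fibrillar collagen gene, was the only 1 of 38 matrix genes, at 7.64-fold (4.41 to 12.5).

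The deepest members lay in a part of chromosome 1 that is known to hold a copy of mitochondrial DNA. They were beside the pseudogenes Gm10925, at 1.83-fold on 203 fragments and 2.01-fold on 193, and Gm10222, at 1.56-fold (1.34 to 1.81). Their backgrounds of 110.5, 95.7 and 114.3 were far above the median member's 1.24, and whether these reads belong to the nuclear copy was not tested. The widest member spanned 3785 bases at the 3′ end of Bmp8a, a BMP ligand gene, at chr4:123309731-123313515, of which 2914 lay past the end and 871 inside the gene, with 8.38-fold enrichment (7.19 to 9.72) on 173 fragments. Scp2, a sterol carrier protein gene, had the next, 5.96-fold over 3133 bases, and Psme2b 9.86-fold (7.56 to 12.6).

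Members closest to a span end stood 2 bases before the start of Ppp6c, a protein phosphatase gene, at 7.41-fold (4.19 to 12.3), 3 bases from Ptk2, the focal adhesion kinase gene, at 8.94-fold, and 4 bases from Emx2os at 13.1-fold (10.02 to 16.9). The last lay only 51 bases from Emx2 on its other side, a homeobox gene that uterine development needs. Gm15908 had 10.9-fold (6.43 to 17.6) at 11 bases, 231 bases from Pxdc1. At the distance limit, the last members inside were by Zfp119a (4999 bases, 8.34-fold), Rrp1b (4992 bases, 6.84-fold) and Prl2c3 (4984 bases, 4.49-fold). Among the first peaks beyond it were those by Zmiz1 (5018 bases, 8.04-fold) and Foxl2os (5031 bases, 17.5-fold).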

How the data were processed

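Values came from a single peak list that sets 1 immunoprecipitated uterus library against 1 input library. The submitters' processing notes name HISAT2 2.2.1, MACS3 3.0.0a7 and the build mm10, and no settings, duplicate handling or filters are given there. The deposited fold ratio, the deposited −log10 p and the deposited −log10 q-value at each summit are the authors' own, and were used only within this list. The deposited display score was not used. Depth was recovered by reading fold as (k + 1)/(background + 1) and p as a Poisson tail above k IP fragments, which matched within 0.001 at 100% of peaks; the fold therefore understates thinly covered peaks. Library totals were not used, and PCR copies are not independent, so intervals cover counting error only. The recovery and the distance code were tested on simulated data.

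RefSeq's GRCm38.p6 gene table gave the spans (49632 genes; 365 rows of other scaffolds left out). Strand came from RefSeq promoter and microRNA tables, for 28097 genes. Spans include predicted transcripts. The nearest gene was that with the closest span end; at 9 members more than 1 gene shared that end.

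Genes were named by rule: nearest genes of the 20 members with the highest fold at −log10 q of at least 5, the 5 gene ends with most members, the 3 deepest, the 3 widest, the 5 closest to a span, those at the distance limit, and up to 3 members per gene list (15 lists). Outside this rule, and chosen with their values known, are the prolactin and zinc finger families, microRNA neighbours, further list genes, Med13, Arf3, Eef2, Pias4, Pgm5, Glg1 and Vps53. Some genes that the rule selects are left out of the text. Members and lists were chosen with earlier results of these data known. Motif counts were planned on windows around summits, and were made on the 250 bases before starts instead, because no genome sequence was used. No test was run: there were no replicates. The values were also computed with −log10 q of at least 5, fold of at least 4, 1 summit per interval, distance limits of 2000 and 10000 bases, whole intervals outside spans, protein-coding spans only, and leaving out peaks at the genome-wide background; leaving out the zinc finger cluster of chromosome 2 was added after seeing the data. Computing used scipy 1.17.1, pandas 2.3.3 and numpy 2.4.6 under Python 3.11.15, and plots were drawn with matplotlib 3.10.9.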

Additional observations from a re-analysis of the deposited data

How the results depend on the processing

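Over 9 alternatives and 7 summary values, 43 of the values stayed within 1.5 times (the count) or within the main value's own 95% interval, and 20 moved. With −log10 q of at least 5, the median fold was 6.80, the median IP fragments 16 and the share of members whose nearest gene held a peak 60.6%; with fold of at least 4 the median fold was 6.32. With a limit of 2000 bases there were 759 members, a median distance of 592 bases, 69.7% within 1000 bases, 69.7% with a peak in the nearest gene and 48.0% past a 3′ end; with 10000 bases the last 4 were 2813.5 bases, 28.3%, 58.2% and 57.1%, as the limit itself sets the distances. With whole intervals outside every span the median distance was 1724 bases and 37.1% lay within 1000 bases. With protein-coding spans only, the median distance was 1679 bases, 79.2% had a peak in the nearest gene and 41.4% lay past a 3′ end; members counted there include peaks inside non-coding genes. Without peaks at the genome-wide background, the median was 16 IP fragments and 68.8% had a peak in the nearest gene. Keeping 1 summit per shared interval changed nothing, as 0 intervals were shared, and leaving out the chromosome 2 cluster moved none of the 7 values. No paired analysis was possible because each group holds 1 library. Depth limits the members: at the median of 14 IP fragments single folds are known only within wide intervals, and the order of most members is not resolved.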
